A study of Mus musculus with 33 samples.

Results

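Matricellular proteins are secreted into the extracellular matrix and act on cells and on matrix assembly rather than forming the load-bearing fibres. The genes described here were chosen by name and were Postn, Tgfbi, Tnc, Sparc, Spp1, Vcan, Fn1, Has2 and Cd44, 9 of the 17120 genes in the count table, and all 9 were measured. RNA sequencing was performed on cultures of mouse embryonic stem cells carrying the ScxGFP reporter, a green fluorescent protein driven by regulatory sequence of the tendon gene Scx. Cells were taken through embryoid bodies with the BMP inhibitor LDN-193189 and the Wnt agonist CHIR to paraxial mesoderm (PM), of which 3 libraries were made on day 6 (D6). The methods describe a refined PM stage that also received a retinoid ligand, AGN 193109 or all-trans retinoic acid, the labels list no condition for PM, and whether the PM cells used here received one is not given in the sources used here. The remaining cultures were plated in monolayer with TGFβ1, the hedgehog agonist SAG and FGF2, together with either CD1530, which activates retinoic acid receptor gamma and was used for tendon induction, or AGN 193109 (AGN), which acts on the retinoic acid receptors as an inverse agonist and was used for fibrocartilage induction. Collections followed after 0.25 and 0.75 days of induction (D6.25 and D6.75) and after 1.5, 2.5 and 4 days (D7.5, D8.5 and D10), which gave 11 groups of 3 libraries. The 2 ligands were given at different concentrations and no induced culture without a retinoid ligand was sequenced, so each difference is one between the ligands as given. The labels give PM as embryoid bodies and every later group as monolayer, and induction and the change of culture format cannot be told apart in comparisons with PM.

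Periostin (Postn) and TGFBI (Tgfbi) are paralogous secreted proteins built from fasciclin domains, and periostin is abundant in tendon, ligament and other collagen-rich tissues. Tenascin-C (Tnc) is a large oligomeric glycoprotein of tendon and of the muscle-tendon junction, SPARC (Sparc, osteonectin) binds collagen, and osteopontin (Spp1) is a phosphoprotein that binds integrins and CD44. Versican (Vcan) is a large chondroitin sulphate proteoglycan that binds hyaluronan, which HAS2 (Has2) synthesizes and for which CD44 (Cd44) is a cell surface receptor. Fibronectin (Fn1) is assembled into fibrils to which several of these proteins bind.

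The genes lie on 8 chromosomes of GRCm38. GENCODE release M21 places Postn at chr3:54361109-54391037, Tgfbi at chr13:56609523-56639562 and Spp1 at chr5:104435118-104441050, all on the plus strand. On the minus strand it places Tnc at chr4:63959785-64047015, Sparc at chr11:55394500-55423183, Vcan at chr13:89655312-89742509, Fn1 at chr1:71585520-71653200, Has2 at chr15:56665627-56694539 and Cd44 at chr2:102811141-102901665. The counts cover all exons of a gene, so the splice forms for which Vcan, Tnc, Fn1 and Cd44 are known were not separated. Union exon length ran from 1.648 kb in Spp1 to 14.462 kb in Vcan. Exons of an annotated opposite-strand gene overlapped those of Tnc by 176 bases, Fn1 by 292 and Has2 by 182. For Tnc the partner, 8030451A03Rik, had 557 counts over all 33 libraries against 635921, and the partners of Fn1 and Has2 were not among the genes counted. Spp1 shared 309 exon bases with Gm42793 on its own strand, also not among the genes counted.

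Total counts were 17.1 to 22.8 M per library, except for 38.1 M in AGN at D8.5 replicate 1. The study describes 3 biological replicates and does not say which stem cell line gave which library, so p-values measure the spread between these libraries. In CD1530 at D6.75, replicate 1 stood apart by transcript length. Against the mean of the other replicates of its group, genes in the longest 10% by exon length had a median log2 difference of -0.38 and those in the shortest 10% of 0.26, while the same long genes in the other libraries lay between -0.10 and 0.19. Among the members, Vcan moved with it by -0.84, Fn1 by -0.81 and Tnc by -0.42. Postn, with 8.702 kb of exon against 7.772 kb in Tnc, did not, and its replicate 1 lay between the other libraries of its group. Where leaving this library out ended or added a call or turned a direction, the value without it is given. Of the PM markers, Tbx6 and Msgn1 were at 9.56 and 3.38 TMM CPM (counts scaled to the library total by the trimmed mean of M values) in PM and at 0.36 or less in both conditions at D10. The summed level of all 6 PM markers went the other way, since it was 56.2 in PM but reached 547 (CD1530) and 653 (AGN) by D10, led by Foxc1, which was at 17.9 in PM and at 372 and 466. The tendon marker Scx was at 6.41 in PM and, at D10, at 858 in CD1530 and 1223 in AGN.

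All 9 genes were detected in every library, and their abundance per kilobase of exon was led by different genes at the start and at the end. In PM, Spp1 had 281 ± 7.99 CPM per kb (SD, n = 3), followed by Sparc with 139.9 ± 4.7 and Fn1 with 139 ± 13.4, whereas the other 6 genes lay between 2.51 for Has2 and 10.7 for Tnc. At D10 Sparc was the most abundant per kb in both conditions, with 761 ± 8.3 in CD1530 and 1155 ± 21.4 in AGN. Postn, at 9.92 ± 0.41 CPM per kb in PM, reached 219 ± 3.1 in CD1530 and 768 ± 23.5 in AGN, where it was next after Sparc. The length used is the union of exons over all annotated transcripts, and the order depends on it. Not divided by length, Postn was at 6680 CPM and Sparc at 4376 in AGN at D10. Has2 and Cd44, the enzyme and the receptor of hyaluronan, had the lowest levels per kb at D10, with 6.80 and 13.0 in CD1530 and 15.9 and 14.5 in AGN. All levels below are TMM CPM and are not divided by length.

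**Figure D1:**
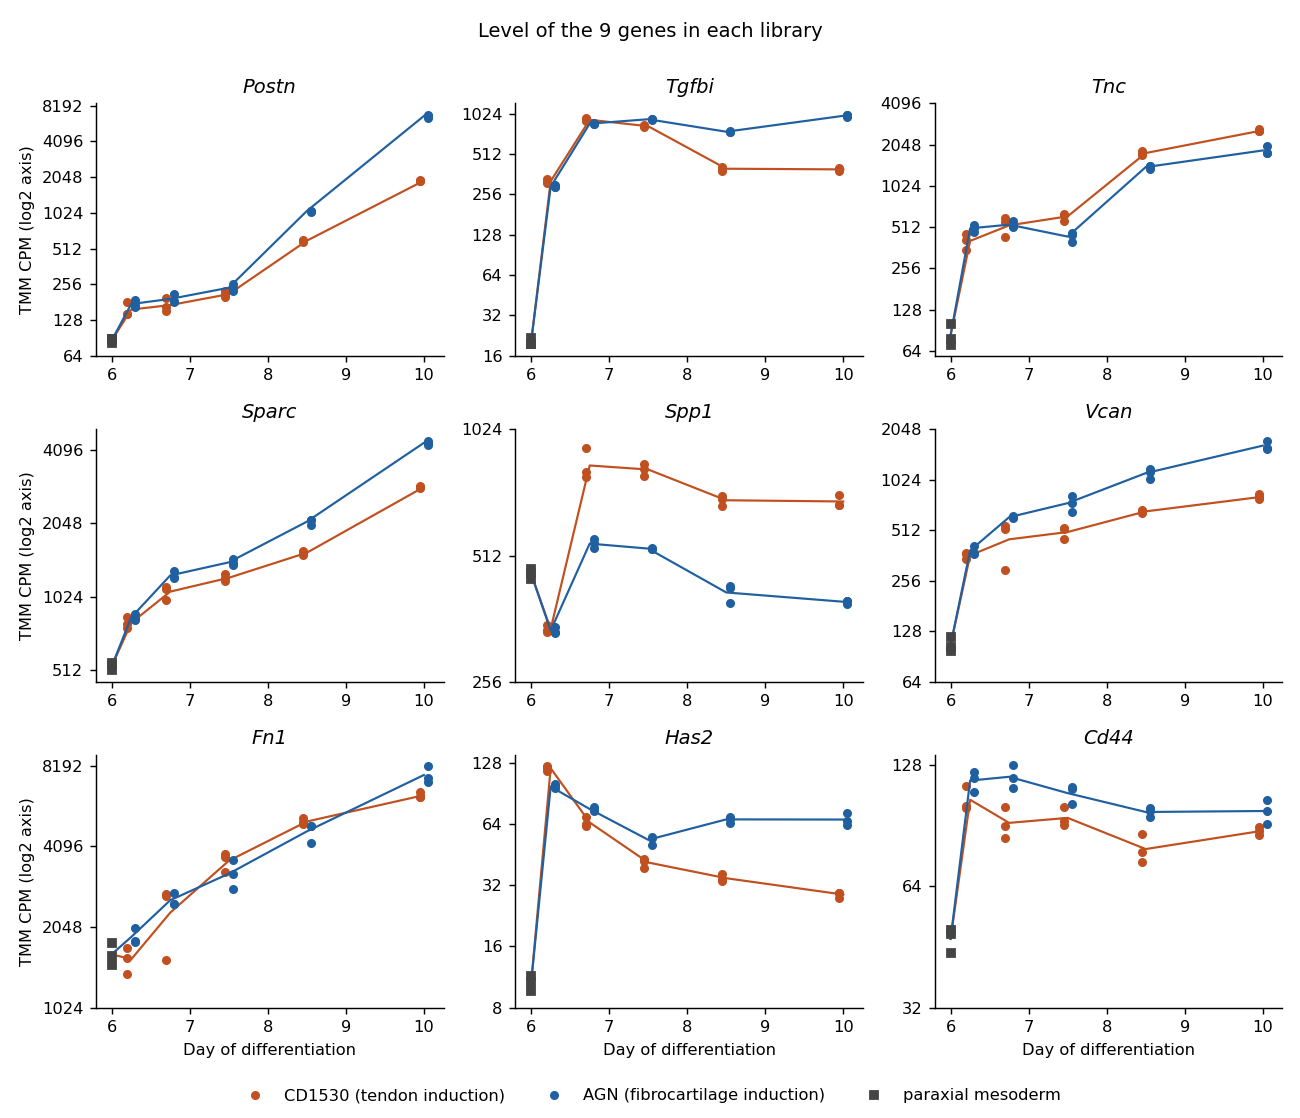
TMM CPM (log2 axis) of each gene by day of differentiation, with 1 point per library, lines through the group means, squares for PM at day 6, and CD1530 and AGN points set slightly left and right of their day. Postn, Tgfbi, Sparc, Vcan and Has2 end higher in AGN (Postn at 6680 against 1907), Tnc and Spp1 end higher in CD1530, and the low Vcan and Fn1 points of CD1530 at day 6.75 belong to replicate 1.

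The comparison of CD1530 with AGN asks where expression under the tendon and fibrocartilage inductions separated. At D10, 7 of the 9 genes were called (adjusted p under 0.05, edgeR), against 46.6% of all 17120 genes. Of these 7, 2 were higher in CD1530, Spp1 and Tnc, and 5 were lower, Postn, Tgfbi, Has2, Vcan and Sparc, while 22.7% of all genes were called higher and 24.0% lower. The median absolute log2 fold change was 0.79 over the 9 genes and 0.22 over all genes. The 9 genes were chosen with earlier results of these data known, so this contrast with all genes is a description only. The libraries come from whole cultures, in which fewer cells of a type and less RNA per cell cannot be told apart. The summed level of 6 cartilage markers at D10 was 749 to 763 CPM in the CD1530 libraries and 3980 to 4166 in the AGN libraries. This was the direction of the 5 lower genes and opposite to that of Spp1 and Tnc. The summed level of 8 tendon markers was 16231 to 16892 and 20918 to 22131. Its largest parts were Col1a1, at 9785 in CD1530 and 11516 in AGN, and Col3a1, at 4197 and 5771. Mkx was nearly equal, at 36.7 and 37.2, and Dcn alone was higher in CD1530, at 1054 and 387. The part of cartilage and tendon cells in the differences of the 9 genes was not tested.

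Separation began early for some of the genes, and the number called rose up to D8.5. At D6.25 only Has2 and Tgfbi were called, both higher in CD1530, against 1.92% of all genes called, 1.23% higher and 0.695% lower. At D6.75, 6 genes were called, Spp1 and Tgfbi higher and Cd44, Has2, Sparc and Vcan lower, against 18.0% of all genes, 7.94% higher and 10.0% lower, and 5 were called without replicate 1 of CD1530, Vcan being lost. In a fit of only the 6 libraries compared, 2 were called at D6.75, Spp1 and Cd44. At D7.5, 7 genes were called, with Tnc joining Spp1 among the higher and Tgfbi among the lower, against 26.9% of all genes, 15.2% higher and 11.8% lower. At D8.5, 8 genes were called, all but Fn1, against 40.0% of all genes, 20.4% higher and 19.6% lower. The interaction of condition with time over the 5 time points, which asks whether the difference between conditions changed with time, was called for 7 genes, all but Fn1 and Cd44, against 48.8% of all genes, and for 8 without replicate 1 of CD1530 at D6.75, Fn1 being added.

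**Figure D2:**
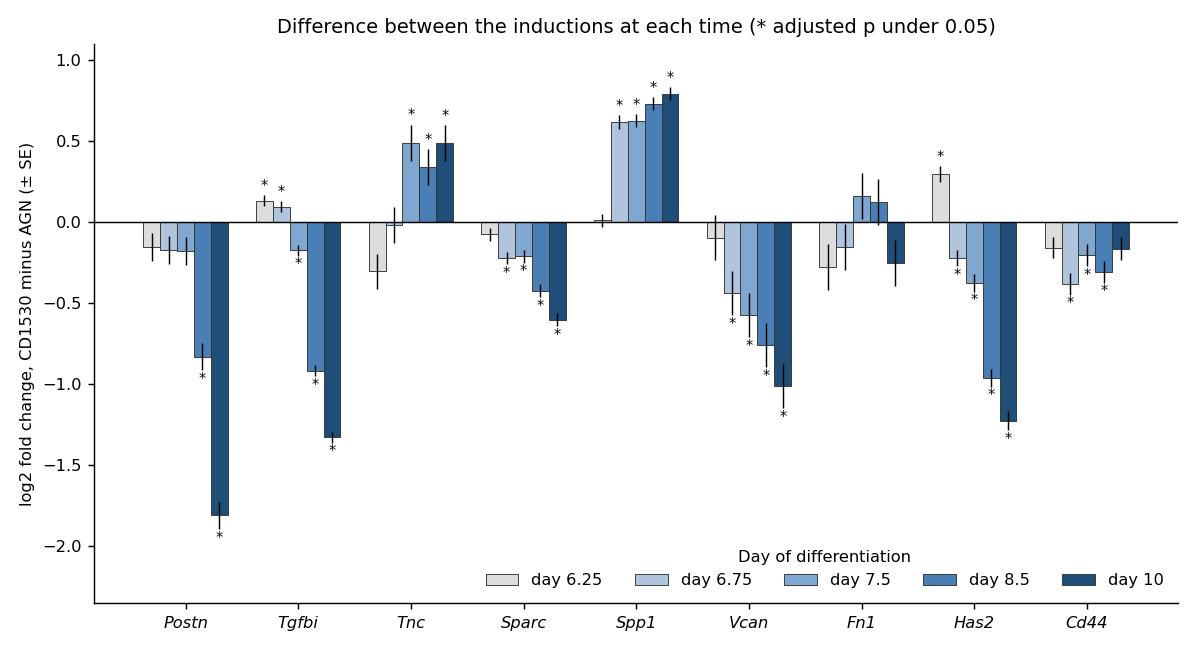
Log2 fold change of CD1530 against AGN for each gene at each day of differentiation, as bars with the edgeR standard error, n = 3 libraries per group, where values below 0 are lower in CD1530 and an asterisk marks an adjusted p under 0.05. Bars of Postn, Tgfbi, Vcan, Has2 and Sparc reach their lowest value at day 10 (-1.81 for Postn), and bars of Spp1 stay above 0.6 from day 6.75 on.

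Of the 7 genes called at D10, 4 had a RefSeq start site whose upstream window held no GENCODE exon, and their proximal promoters are shown because these genes separated in opposite directions. Postn and Vcan were lower in CD1530, and Tnc and Spp1 were higher. Each sequence is the 250 bases upstream of the start site nearest to the 5′ end of the GENCODE gene, in the direction of transcription (RefSeq, GRCm38.p6). Capitals mark matches on either strand to 4 motifs, the TATA box TATAAA, the GC box GGGCGG, the nuclear receptor element AGGTCA and the SMAD element CAGACA, none of which overlapped another. Postn lies at chr3:54360857-54361106 (plus strand), Vcan at chr13:89742513-89742762 (minus), Tnc at chr4:64047016-64047265 (minus) and Spp1 at chr5:104434861-104435110 (plus).
Postn: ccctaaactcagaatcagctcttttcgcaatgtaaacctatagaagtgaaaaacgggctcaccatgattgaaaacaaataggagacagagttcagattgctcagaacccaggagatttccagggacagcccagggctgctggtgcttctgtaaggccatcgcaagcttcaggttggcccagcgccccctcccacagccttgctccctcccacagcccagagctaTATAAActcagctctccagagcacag
Vcan: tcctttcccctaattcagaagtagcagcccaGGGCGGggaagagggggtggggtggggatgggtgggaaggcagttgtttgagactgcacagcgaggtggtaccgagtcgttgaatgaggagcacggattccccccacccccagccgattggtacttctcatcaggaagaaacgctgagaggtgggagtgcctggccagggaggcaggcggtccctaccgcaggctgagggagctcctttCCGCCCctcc
Tnc: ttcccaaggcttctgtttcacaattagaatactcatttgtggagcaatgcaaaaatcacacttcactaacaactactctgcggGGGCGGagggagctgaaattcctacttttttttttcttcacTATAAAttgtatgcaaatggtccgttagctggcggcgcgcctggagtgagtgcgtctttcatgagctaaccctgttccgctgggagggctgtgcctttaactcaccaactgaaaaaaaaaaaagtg
Spp1: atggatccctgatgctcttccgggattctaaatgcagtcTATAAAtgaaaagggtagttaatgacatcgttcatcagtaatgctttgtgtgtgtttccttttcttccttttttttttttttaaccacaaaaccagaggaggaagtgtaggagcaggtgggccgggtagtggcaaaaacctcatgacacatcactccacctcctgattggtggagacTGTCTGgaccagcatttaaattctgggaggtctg
The TATA box letters stood 1 time each in the windows of Postn, Tnc and Spp1 and in 12.4% of 32851 promoter windows of the same length. The Postn match ended 20 bases before the start site, whereas those of Tnc and Spp1 ended 120 and 205 bases before it. The GC box letters stood 2 times in Vcan, 1 on each strand, and 1 time in Tnc, and in 32.7% of all windows. Among the windows shown, the SMAD element was found in Spp1 alone, and in 17.1% of all windows. The nuclear receptor element was in none of the 4 and in 14.0% of all windows. Postn, Tnc and Spp1 each have a further RefSeq start site whose window is not shown. That of Tnc also held a SMAD element, which ended 65 bases before its start site. That of Postn held a nuclear receptor element, which ended 132 bases before its start site. That of Spp1 held no match to these motifs.

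Postn showed the widest range of the 9 genes. It was lowest in PM, at 88.1, 88.6 and 82.2 CPM, and highest in AGN at D10, at 6844, 6746 and 6451, a ratio of means of 77.4. The CD1530 libraries at D10 stood at 1897, 1886 and 1937, so the conditions did not overlap. The log2 fold change of CD1530 against AGN was -1.81 ± 0.08 (SE, adjusted p = 4.15e-15), that is 3.50-fold lower. The difference emerged late: at D7.5 Postn was at 212 ± 11.5 in CD1530 and 239 ± 15.96 in AGN (SD, n = 3) and was not called (log2 fold change -0.18 ± 0.09, adjusted p = 0.14), although it was called in a fit of these 6 libraries alone (adjusted p = 0.0025). At D8.5 it was at 597, 608 and 583 in CD1530 and at 1049.8, 1060.1 and 1069.5 in AGN (-0.83 ± 0.08, adjusted p = 1.47e-08). In the order of its 11 group means, 5 of 10 neighbouring pairs overlapped in their libraries, all of them among the groups from D6.25 to D7.5.

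Tgfbi, the paralog, followed another course. It was at 21.7, 19.6 and 19.7 CPM in PM and by D6.25 already at 311, 331 and 319 in CD1530 and 289, 298 and 289 in AGN, and no PM library overlapped these. The rise from PM was 15.7-fold in CD1530 (log2 fold change 3.97 ± 0.04, adjusted p = 4.08e-44) and 14.3-fold in AGN (3.84 ± 0.04, adjusted p = 1.51e-43). It was near its peak by D6.75, at 919.6 ± 21.9 in CD1530 and 860.5 ± 10.98 in AGN. Thereafter the conditions parted, since in CD1530 Tgfbi fell to 397 ± 16.1 by D8.5 and was 392 ± 8.7 at D10, whereas in AGN it was 749 ± 9.5 and 984 ± 22.0. At D10 the libraries were at 399, 395 and 383 in CD1530 and 1001, 992 and 959 in AGN, with a log2 fold change of -1.33 ± 0.03 (adjusted p = 8.17e-31).

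The direction of the Tgfbi difference changed with time. CD1530 was higher at D6.25 by a log2 fold change of 0.13 ± 0.03 (adjusted p = 0.021) and at D6.75 by 0.10 ± 0.03 (adjusted p = 0.033, or 0.315 in a fit of only these libraries), with no overlap of libraries at either time. These early differences are under 1.1-fold and were not called when any of 4 single libraries was left out at each time. From D7.5 on it was lower in CD1530, first by -0.17 ± 0.03 (adjusted p = 4.9e-05). The interaction with time had an adjusted p of 2.7e-28.

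Tnc rose in both conditions and ended higher in CD1530. It was at 101, 78.6 and 70.6 CPM in PM and, at D10, at 2655, 2578 and 2583 in CD1530 and 1787, 2008 and 1775 in AGN, without overlap between the conditions. The log2 fold change at D10 was 0.49 ± 0.11 (adjusted p = 0.00067), 1.40-fold higher in CD1530. At D6.25 the libraries of CD1530 (350, 457 and 411) lay below those of AGN (506, 469 and 529), with a difference of -0.30 ± 0.11 that was not called (adjusted p = 0.22). At D6.75 the groups overlapped, with -0.02 ± 0.11 (adjusted p = 0.94), and 0.11 without replicate 1 of CD1530. The higher level in CD1530 was called from D7.5, at 614 ± 36.8 against 437 ± 34.7 (0.49 ± 0.11, adjusted p = 0.0015), and at D8.5 (0.34 ± 0.11, adjusted p = 0.015), where it was not called without AGN replicate 2 (adjusted p = 0.053).

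Spp1 was the other gene higher in CD1530, and its time course differed from those of the rest. It was at 464, 475 and 449 CPM in PM and by D6.25 fell in both conditions, to 342 ± 6.4 in CD1530 and 339 ± 6.3 in AGN, where the conditions overlapped (log2 fold change 0.012 ± 0.041, adjusted p = 0.96). At D6.75 it was at 923, 809 and 787 in CD1530 and at 547, 560 and 532 in AGN, a separation of 0.62 ± 0.04 (adjusted p = 1.53e-15), or of 0.55 ± 0.03 without replicate 1 of CD1530. The difference was 0.63 ± 0.04 at D7.5, 0.73 ± 0.04 at D8.5 and 0.79 ± 0.04 at D10 (adjusted p = 8.51e-20), so that most of it was present at D6.75. At D10 the libraries stood at 675, 715 and 676 in CD1530 and 392, 399 and 399.8 in AGN, on either side of the PM level. Against PM, Spp1 was 1.49-fold higher in CD1530 (0.57 ± 0.04, adjusted p = 2.92e-16) and lower in AGN (-0.22 ± 0.04, adjusted p = 7.1e-06), in comparisons that share the PM libraries.

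Osteopontin is also a product of macrophages and of bone-forming cells. At D10 the summed level of 10 macrophage markers was 53.4 to 61.4 CPM in CD1530 and 55.9 to 60.3 in AGN, ranges that overlapped. The summed level of the 4 measured osteoblast markers was 87.2 to 94.9 in CD1530 and 62.4 to 64.7 in AGN. In PM it was higher, at 411 to 444, most of it Alpl (mean 419). The markers did not move together at D10. Alpl was at 64.3 in CD1530 and 12.2 in AGN, and Ibsp at 12.3 and 5.15. Runx2 and Sp7 went the other way, at 13.6 and 0.41 in CD1530 and at 42.3 and 3.99 in AGN. Bglap, a defining marker of mature osteoblasts, was not among the genes counted. The part of such cells in the Spp1 difference was not tested.

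Sparc rose at each step in both conditions and was lower in CD1530 from D6.75 on. It was at 535, 545 and 510 CPM in PM and, at D10, at 2872, 2919 and 2860 in CD1530 and 4463, 4303 and 4362 in AGN, without overlap. The log2 fold change at D10 was -0.60 ± 0.04 (adjusted p = 9.04e-17), 1.52-fold lower in CD1530. The difference grew in time, from -0.07 ± 0.04 at D6.25 (adjusted p = 0.47) through -0.22 ± 0.04 at D6.75 (adjusted p = 3.39e-05, or 0.0845 in a fit of only these libraries) and -0.21 ± 0.04 at D7.5 to -0.42 ± 0.04 at D8.5 (adjusted p = 5.74e-12). The rise in CD1530 from D6.75 to D7.5, 0.19 ± 0.04 (adjusted p = 0.00018), was also not called in a fit of only its 6 libraries (adjusted p = 0.0911).

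Fn1 was the most highly counted gene of the set and did not differ between the conditions by the test at any time. At D10 its libraries were at 6537, 6263 and 6273 CPM in CD1530 and 7141, 8194 and 7348 in AGN, and although they did not overlap, the log2 fold change of -0.25 ± 0.14 was not called (adjusted p = 0.16). It was called in a fit of these 6 libraries alone (adjusted p = 0.024). At D6.75 the CD1530 libraries were at 1541, 2679 and 2730, the first of them replicate 1, and the fold change of -0.15 became 0.069 without it. The interaction with time was not called (adjusted p = 0.17), and was called without that library (adjusted p = 0.0096). From PM, at 1785, 1474 and 1603, Fn1 rose 3.92-fold in CD1530 and 4.67-fold in AGN by D10 (adjusted p = 9.27e-12 and 1.12e-12), but the change by D6.25 was not called in either condition (adjusted p = 0.71 and 0.19).

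The hyaluronan genes had different courses. Vcan was at 118, 97.1 and 103 CPM in PM, its mean in AGN was higher at each later collection, and it reached 841, 784 and 812 in CD1530 and 1564, 1753 and 1593 in AGN at D10, without overlap. The log2 fold change at D10 was -1.01 ± 0.14 (adjusted p = 1.27e-06), 2.02-fold lower in CD1530. It was called at D7.5 (-0.57 ± 0.14, adjusted p = 0.0026) and at D8.5 (-0.76 ± 0.14, adjusted p = 8.54e-05). At D6.75 the call depended on single libraries. The CD1530 libraries were at 296, 521 and 540 and the AGN libraries at 625, 611 and 602, with -0.44 ± 0.14 (adjusted p = 0.027), and without replicate 1 of CD1530 the value was -0.21 (adjusted p = 0.11). The same library set the direction of the next step in CD1530, from a mean of 452 at D6.75 to 500.0 at D7.5 with it and from 530 without it, and neither change was called (adjusted p = 0.45 and 0.52). Leaving out any of the 3 AGN libraries at D6.75 also ended this call, with adjusted p up to 0.076.

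Has2 peaked at the earliest collection and then declined. It was at 10.7, 9.68 and 11.5 CPM in PM and at D6.25 at 121, 123 and 117 in CD1530 and 100.2, 96.8 and 96.6 in AGN, a rise of 11.4-fold and 9.23-fold (adjusted p = 2.6e-36 and 8.61e-35). At D6.25 it was higher in CD1530 by 0.30 ± 0.05 (adjusted p = 0.0001), and from D6.75 on it was lower, by -0.22 ± 0.05 at D6.75 (adjusted p = 0.0013, or 0.0821 in a fit of only these libraries) and -0.37 ± 0.05 at D7.5 (adjusted p = 6.3e-07). In CD1530 it fell at each later step, to 29.2, 27.8 and 29.4 at D10. In AGN it fell to 53.5 ± 2.8 at D7.5 and then rose to 67.5 ± 2.2 at D8.5, with 72.7, 63.0 and 66.3 at D10. The conditions did not overlap at D10, with a log2 fold change of -1.23 ± 0.06 (adjusted p = 2.07e-21), 2.34-fold lower in CD1530.

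Cd44 varied little after D6.25. It was at 49.9, 48.7 and 43.6 CPM in PM and at D6.25 at 105 ± 7.3 in CD1530 and 117 ± 6.8 in AGN, and its later group means stayed between 79.3 and 119.8. In the order of its 11 group means, 9 of 10 neighbouring pairs overlapped in their libraries, all but PM and the next. CD1530 was lower at D6.75 (-0.38 ± 0.07, adjusted p = 5.4e-05), at D7.5 (-0.20 ± 0.07, adjusted p = 0.021) and at D8.5 (-0.31 ± 0.07, adjusted p = 0.00047). The D7.5 call was lost without any of 4 of its 6 libraries. At D10 the libraries were at 86.0, 90.1 and 88.0 in CD1530 and 98.8, 105 and 91.7 in AGN, without overlap, and the difference of -0.16 ± 0.07 was just over the threshold (adjusted p = 0.052), while 5 other settings called it (adjusted p = 0.0028 to 0.048).

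The steps between consecutive times show when each gene moved. From PM to D6.25, 8 genes were called in each condition, 7 higher and Spp1 lower, all but Fn1. Of all genes 67.8% were called in CD1530 (34.5% higher and 33.3% lower) and 68.1% in AGN (35.0% higher and 33.1% lower). This was the largest step for Tgfbi, Tnc, Vcan, Has2 and Cd44 in both conditions. For Tnc the log2 fold change was 2.28 ± 0.12 in CD1530 and 2.59 ± 0.12 in AGN, and for Vcan 1.78 ± 0.15 and 1.87 ± 0.15.

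Between D6.25 and D6.75, 7 genes changed in CD1530 (45.9% of all genes) and 6 in AGN (43.7%). Tgfbi rose by a further 1.52 ± 0.03 and 1.56 ± 0.03, and Spp1 by 1.30 ± 0.04 and 0.69 ± 0.04, where the CD1530 value was 1.22 without replicate 1 at D6.75. Between D6.75 and D7.5, 5 genes changed in CD1530 (34.2% of all genes) and 4 in AGN (30.3%). Without replicate 1 of CD1530 at D6.75, the count for the first of these steps was again 7, but Cd44 lost its call (adjusted p = 0.0703) and Vcan gained one (0.55 ± 0.09, adjusted p = 1.17e-05), while the same 5 genes were called at the second. The Spp1 change in CD1530 at the second step turned from -0.03 to 0.04 without it, and neither was called (adjusted p = 0.58 and 0.38). Over this step Has2 had the largest called change in both conditions, since it fell by 0.65 on the log2 scale in CD1530 and fell by 0.50 in AGN. From D7.5 to D8.5 all 9 genes changed in CD1530 (36.5% of all genes) and 8 in AGN (42.1%), Cd44 being the exception. This was the step at which Tnc rose again, by 1.53 ± 0.11 in CD1530 and 1.68 ± 0.11 in AGN, and at which Tgfbi fell by 1.05 on the log2 scale in CD1530 and fell by 0.31 in AGN. The Vcan call at this step in CD1530 (adjusted p = 0.022) was lost without replicate 1 at D7.5 (adjusted p = 0.098). It was also lost without replicate 1 or replicate 3 at D8.5 (adjusted p = 0.052 and 0.056).

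From D8.5 to D10, 4 genes changed in CD1530 (57.3% of all genes) and 6 in AGN (59.4%). The change in CD1530 was called for Postn, Tnc, Sparc and Has2, and that in AGN for Postn, Tnc, Sparc, Tgfbi, Vcan and Fn1. Whether this last step differed between the conditions was tested as an interaction, which was called for 4 genes against 26.8% of all genes. Postn rose by 1.68 ± 0.09 in CD1530 and 2.66 ± 0.09 in AGN, a difference of -0.98 ± 0.12 (adjusted p = 6.8e-07). Tgfbi had no called change in CD1530 (-0.02 ± 0.03) and rose by 0.39 ± 0.03 in AGN, a difference of -0.41 ± 0.05 (adjusted p = 4.15e-09). The differences were -0.27 ± 0.08 for Has2 (adjusted p = 0.0105) and -0.18 ± 0.05 for Sparc (adjusted p = 0.0126), and Has2 was not called without AGN replicate 1 at D10 (adjusted p = 0.055). For Vcan and Fn1 the difference of the steps was not called (-0.25 ± 0.19 and -0.37 ± 0.20, adjusted p = 0.37 and 0.19).

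**Figure D3:**
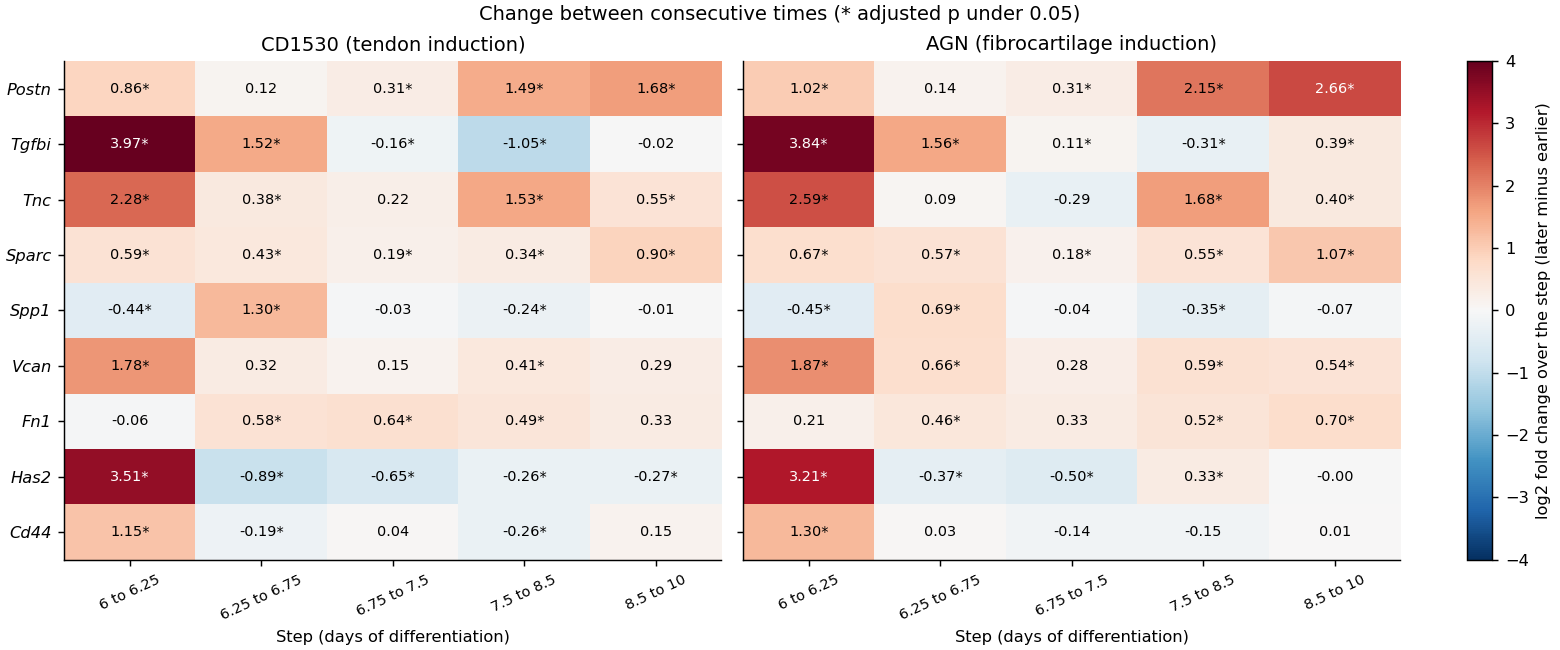
Log2 fold change between consecutive collections (later minus earlier, red for rises and blue for falls, value printed in each cell) for CD1530 on the left and AGN on the right, with an asterisk for an adjusted p under 0.05 and n = 3 libraries per group. Tgfbi and Has2 take their largest step from day 6 to 6.25 (3.97 and 3.51 in CD1530), whereas Postn takes it from day 8.5 to 10 (2.66 in AGN).

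Over the whole course from PM to D10, all 9 genes were called in both conditions, against 83.2% of all genes in CD1530 (43.3% higher and 39.9% lower) and 82.0% in AGN (41.6% higher and 40.4% lower). All 9 were higher at D10 in CD1530, and in AGN 8 were higher and Spp1 lower. The rises in CD1530 and AGN, which share the PM libraries, were 22.1-fold and 77.4-fold for Postn, 19.3-fold and 48.3-fold for Tgfbi, and 31.2-fold and 22.2-fold for Tnc. They were 7.67-fold and 15.4-fold for Vcan, 5.44-fold and 8.25-fold for Sparc, 2.72-fold and 6.35-fold for Has2, and 1.85-fold and 2.08-fold for Cd44. Tnc and Spp1 were the genes with the larger fold in CD1530.

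The 9 genes did not share a single time course. Over the 11 group means of log2(TMM CPM + 1), which come from the same libraries, Pearson's r was 0.96 between Postn and Sparc, 0.91 between Sparc and Vcan and 0.90 between Has2 and Cd44. Between the paralogs Postn and Tgfbi it was 0.41, and for Spp1 with the other genes it lay between -0.38 and 0.28. Among 9929 genes with a mean of at least 10 CPM, those most like each member on this scale were also listed. They were Tspan4, Lmf2 and Stimate for Postn (r from 0.991 to 0.995), Mex3b, Cyth1 and Acvrl1 for Tgfbi (0.970 to 0.976), and Pde10a, Chsy1 and Fjx1 for Tnc (0.986 to 0.996). Sparc was most like Fkbp7, Copz2 and Npr2 (all 0.995), Vcan like Sardh, Acap3 and Foxk1 (0.985 to 0.992), and Fn1 like Chd3, Zfp580 and Unk (0.993 to 0.994). For Has2, Car4 and Sox5 are named (0.932 and 0.931), and Cd44 was most like Pxdc1, Zfp608 and Adgrg6 (0.939 to 0.956). For Spp1, Irak2 and Nmi are named (0.914 and 0.910), lower values than those of the genes named for the other members. These lists depended on the measure, since of the 27 genes ranked in the first 3 for a member, 4 were so by Spearman's rho over the group means and 18 by Pearson's r over the 33 libraries. By Spearman's rho Tspan4 ranked 663 for Postn and Fjx1 1131 for Tnc, and over the libraries Zfp580 ranked 87 for Fn1.

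Related genes were described as lists at D10, CD1530 against AGN, where the median log2 fold change over all genes was -0.02. Of 10 other tenascin and SPARC family genes, 3 were higher, 4 lower and 3 not called, with a median of -0.32. Sparcl1, a SPARC paralog, stood at 496 ± 5.0 CPM in CD1530 and 229 ± 5.7 in AGN (1.11 ± 0.04, adjusted p = 1.37e-26), the opposite direction to Sparc. Smoc2, a matricellular calcium-binding protein of the same family, was at 49.0 ± 2.6 and 229.6 ± 4.9 (-2.23 ± 0.06, adjusted p = 3.63e-30). Of the 4 measured genes of the CCN family, 2 were higher and 2 lower, with Ccn4 at 0.72 ± 0.05 and Ccn2, the connective tissue growth factor, at -0.22 ± 0.05. Of 6 fibulins, elastic fibre glycoproteins, 2 were higher and 4 lower with a median of -0.26, and Fbln2 and Fbln5 were at -0.84 ± 0.09 and -0.79 ± 0.05.

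Both measured relatives of Spp1 in the SIBLING family of mineralized matrix phosphoproteins were also higher in CD1530 at D10, but at D8.5, 1 was higher and 1 lower. Ibsp, bone sialoprotein, was at 12.3 CPM against 5.15 (1.25 ± 0.12, adjusted p = 1.9e-11), and Dmp1 at 17.3 against 12.1 (0.51 ± 0.12, adjusted p = 0.00031). At D8.5 Ibsp was at 16.1 against 7.29 (1.13 ± 0.10, adjusted p = 6.53e-12) and Dmp1 at 6.28 against 8.42 (-0.43 ± 0.13, adjusted p = 0.0084).

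Among 14 measured genes of hyaluronan synthesis, turnover and binding, 4 were higher, 6 lower and 4 not called, with a median of 0.13. Has1 and Has3, the other synthases, were under 1 CPM in both conditions at D10, and neither was called. Hapln1, the link protein that fixes hyaluronan to proteoglycans in cartilage, stood at 0.86 CPM in CD1530 and 38.9 in AGN (-5.49 ± 0.14, adjusted p = 4.14e-30), and Hapln3 at 1.80 and 5.87 (-1.70 ± 0.20). The versican relative aggrecan (Acan), the large proteoglycan of cartilage, stood at 4.66 ± 0.67 CPM in CD1530 and 215 ± 11.9 in AGN (-5.53 ± 0.09, adjusted p = 1.33e-37). Ncan, the other measured lectican, was not called.

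Of 7 proteases of the ADAMTS family that cleave lecticans, 3 were higher, 3 lower and 1 not called, with a median of -0.17. Adamts8 was at 1.74 ± 0.10 and Adamts20 at -2.45 ± 0.18. Of 10 measured integrin and syndecan receptors, 5 were higher, 2 lower and 3 not called, with a median of 0.14. Itga8, whose integrin binds osteopontin, tenascin-C and fibronectin, stood at 42.4 CPM in CD1530 and 15.0 in AGN (1.50 ± 0.09, adjusted p = 1.46e-17), and Itgb5 at 765 and 417 (0.88 ± 0.04, adjusted p = 9.95e-22). Itgb1, the subunit most of these receptors share, was at 1493 and 1485 (0.01 ± 0.03, adjusted p = 0.88).

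**Figure D4:**
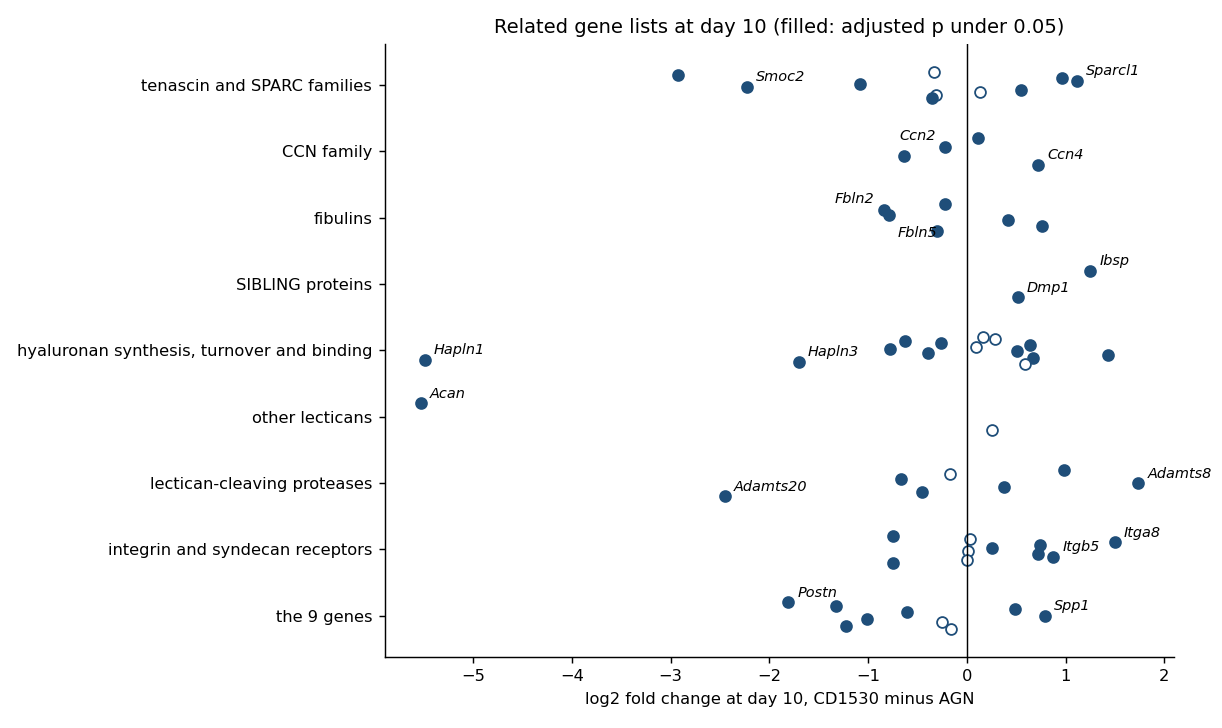
Log2 fold change at day 10, CD1530 minus AGN, of each measured gene in the related lists and of the 9 genes, 1 point per gene, filled where the adjusted p was under 0.05. Points fall on both sides of 0 in most lists, and Hapln1 and Acan lie farthest to the left at -5.49 and -5.53.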

How the data were processed

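RNA was extracted from the 33 cultures and sequenced as paired-end reads. The authors aligned reads to GRCm38 with STAR and assigned them to genes with featureCounts. The deposited table holds the resulting raw counts per gene, not normalized, for 17120 genes. Which annotation release was used, whether strand was used in counting and how reads with more than 1 alignment were treated is not given in the sources used here, so opposite-strand reads may be included. The members and the gene lists were chosen with earlier results of these data known.

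Counts were fitted with edgeR 4.0.16 under R 4.3.3, all 33 libraries in 1 fit with 11 group means, TMM normalization and the robust quasi-likelihood F test. No covariate was used, and edgeR's expression filter left all genes in. P-values were adjusted by Benjamini-Hochberg over all 17120 genes within each of 19 contrasts. Calls were made at an adjusted p under 0.05, and the standard error was taken from the F statistic. On simulated data for the D10 comparison, with 17096 genes, the fit recovered 95 of 100 genes changed 2-fold and 89 of 100 changed 1.5-fold, with 7 false calls. Total counts per library were 17116084 to 38120841 (median 19899242), and the biological coefficient of variation was 4.68%. No pair of replicate libraries was identical, and the smallest chi-square per gene between replicates was 1.58. Exon lengths came from GENCODE M21, which held all 17120 identifiers. Promoters came from RefSeq and matched 7 of the 9 genes.

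Named genes were all 9 members and, in each list, up to 2 called genes with the largest absolute log2 fold change at D10 among those with a mean of at least 50 counts. For each member the 3 genes with the highest Pearson r over group means were added, predicted genes left out, and 1 each for Has2 and Spp1 is not reported here. Ncan, Has1, Has3 and Itgb1 were named after their values were seen. The alternatives were DESeq2 size factors, library size only, no filter, 1 CPM in 3 libraries, DESeq2 1.42.0, a fit that is not robust, only the libraries compared, a minimum log2 change of 1 in either direction, the replicate number as a block, and each library left out in turn. For likeness, Spearman's rho and all 33 libraries were tried. Figures were drawn from these values.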

Additional observations from a re-analysis of the deposited data

Results flagged for a closer look

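For 7 of the 9 genes the effect of condition (CD1530 against AGN) varied over the 5 time points, by the interaction of condition with time in the edgeR fit. Of all genes 48.8% were called for this interaction. The adjusted p was 2.7e-28 for Tgfbi, 4.35e-20 for Has2, 3.02e-14 for Spp1, 3.11e-11 for Postn, 7.38e-10 for Sparc, 0.00037 for Tnc and 0.0047 for Vcan. For Tgfbi and Has2 the difference changed direction, from higher to lower in CD1530. For Spp1 it was near 0 at D6.25 and 0.62 to 0.79 on the log2 scale afterwards. The step from D8.5 to D10 also differed between the conditions, by a log2 difference (CD1530 minus AGN) of -0.98 for Postn, -0.41 for Tgfbi, -0.27 for Has2 and -0.18 for Sparc. Of all genes 26.8% were called for this difference of steps. Groups of 3 libraries are too small for the check used to flag single outlying samples. Replicate 1 of CD1530 at D6.75 stood apart by transcript length, as described above, and each library was left out in turn.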

How the results depend on the processing

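Over the 19 comparisons, the number of the 9 genes called moved by over 1.5 times in the following cases. The share of all genes called was taken for the main fit only, so these counts are not compared with all genes. With a minimum log2 change of 1 in either direction, it was 0 for CD1530 against AGN at D6.25, D6.75, D7.5 and D8.5, 4 at D10, and 0 for the interaction with the last step. The same setting gave 5 from PM to D6.25 in CD1530. It gave 2 and 1 in CD1530 and AGN from D6.25 to D6.75, 0 in both from D6.75 to D7.5, 3 and 2 from D7.5 to D8.5, and 1 and 2 from D8.5 to D10. With only the libraries compared, the number was 2 at D6.75, 8 for the interaction with the last step, and in CD1530 4 from D6.25 to D6.75, 3 from D6.75 to D7.5 and 7 from D8.5 to D10. DESeq2 gave 7 for the last of these, and the cause was not tested. Without single libraries the D6.25 count was 1 to 2. Leaving out single libraries turned the direction of 3 values that were not called, with ranges of -0.29 to 0.069 for Fn1 and -0.12 to 0.11 for Tnc at D6.75, and -0.0031 to 0.027 for Spp1 at D6.25. This number leaves aside steps between consecutive times that were not called. Among those, the changes in CD1530 from D6.75 to D7.5 also turned without replicate 1 at D6.75. They went from 0.15 to -0.08 for Vcan and from -0.03 to 0.04 for Spp1. DESeq2 size factors, library size only, both filters and the fit that is not robust moved no count by over 1.5 times. They turned no direction either, with the uncalled steps again left aside. Scaling by library size only shifted the median of all genes by up to -0.15 (PM to D10 in AGN). Replicate numbers did not pair the libraries: in 15 pairs of the same number and day, the correlation of deviations was -0.068 to 0.033 and 2 were highest with their own number. With the replicate number as a block, 8 genes were called at D10, Cd44 being added, and 16 of the 19 counts had the same value.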
